A study of Mus musculus with 6 samples.

Results

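The miR-379 to miR-410 cluster is a run of microRNA (miRNA) hairpins on mouse chromosome 12, in the imprinted Dlk1-Dio3 region. It was defined here by the names of 49 mature miRNAs. Of these, 46 were listed among the 1013 distinct small RNA sequences of the data set, 20 from the 5p arm of their hairpin and 26 from the 3p arm. The names miR-654-3p, miR-539-3p and miR-485-3p were not analysed here. A low-read filter left 45 of the 46 for testing, and the remaining one, miR-376a-3p, is given with its reads below.

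The study sequenced small RNA of prefrontal cortex, taken from C57BL/6 males. Dosing began at an age of 5 weeks, was given by mouth once a day for 6 months, and the age given at sampling was 30 weeks. The treated group received polystyrene nanoparticles (PS-NP, written PS NPs in the labels) at 50 mg per kg body weight, and the control group received water by the same route, that is 0 mg per kg. Each group had 3 libraries, named control 1 to 3 and PS-NP 1 to 3 below. The labels do not say whether different libraries came from different animals, and the p-values therefore measure only how much these libraries vary, which may be technical variation.

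The hairpins of this cluster are cut from long noncoding transcripts made from the maternal chromosome, and Mirg is the annotated gene that covers the distal stretch. Each hairpin can give a mature miRNA from either arm, and bases 2 to 8 of the mature miRNA, the seed, do most of the pairing with target mRNAs. The cluster is found in placental mammals and is expressed mainly in brain. In rat neurons its transcription follows neuronal activity through Mef2, and miR-134, miR-329 and miR-381 take part in the growth of dendrites. In bulk tissue, fewer cells of a type and less RNA per cell cannot be told apart.

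The 33 hairpins that carry the 49 names lie on the plus strand of GRCm38 at chr12:109709060-109743795, a stretch of 34.7 kb, with a median of 678.5 bases from one hairpin start to the next. In the GENCODE M21 annotation, Mirg (chr12:109729764-109749460) contains the last 12 of them, from Mir382 to Mir410. Mir382, Mir134, Mir668, Mir485, Mir377, Mir412, Mir369 and Mir410 lie in its exons, 8 in all. Mir154, Mir496a, Mir541 and Mir409 lie in its introns, 4 in all. The first 21 hairpins, from Mir379 to Mir539, have no host gene annotated on their strand.

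The listed sequences of the first hairpins, of the most abundant member and of a closely related pair are shown. That of miR-667-3p, the member of lowest p between the groups, is shown as well. The levels and differences below refer to these sequences. They are written 5′ to 3′ in the DNA letters of the deposited table, with the seed (bases 2 to 8) in capitals; the species prefix mmu is left out elsewhere.
mmu-miR-379-5p: tGGTAGACtatggaacgtagg
mmu-miR-411-5p: tAGTAGACcgtatagcgtacg
mmu-miR-379-3p: tATGTAACatggtccactaac
mmu-miR-411-3p: tATGTAACacggtccactaac
mmu-miR-541-5p: aAGGGATTctgatgttggtcacact
mmu-miR-300-3p: tATGCAAGggcaagctctcttc
mmu-miR-381-3p: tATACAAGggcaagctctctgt
mmu-miR-667-3p: tGACACCTgccacccagcccaag

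Seeds were rarely shared within the cluster: the 46 listed members carried 45 distinct ones. The exception was ATGTAAC, the seed of both miR-379-3p and miR-411-3p, whose listed sequences differed only by T10C (positions counted from 1 at the 5′ end, miR-379-3p first). Their 5p partners had different seeds, GGTAGAC and AGTAGAC. miR-300-3p and miR-381-3p differed by G4A, T21G and C22T (miR-300-3p first), and the first of these changes lies in the seed. For miR-379-3p, miR-411-3p, miR-300-3p, miR-381-3p and miR-376b-5p at least 1 library had a value that was not a whole number even after summing, so that part of their reads had been divided between sequences and their levels are less certain.

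The form listed in the table was not always the reference form. Mature sequences from RefSeq (GRCm38.p6) were matched for 45 of the 49 names and 43 of the 46 listed members. The names without a match were miR-376c-3p, miR-487b-3p, miR-539-3p and miR-485-5p. Of the 43, 27 were the same from end to end, 11 differed only at the 3′ end by 1 to 4 bases, 4 began at another base and 1 carried a substitution inside. The last 5 have a seed that differs from the RefSeq one, so these are shown as listed and as in RefSeq, with U written as T and the seed in capitals.
miR-376b-3p, listed: aTCATGGAggaacatccactt
miR-376b-3p, RefSeq: aTCATAGAggaacatccactt
miR-382-3p, listed: aATCATTCacggacaacacttt
miR-382-3p, RefSeq: tCATTCACggacaacacttttt
miR-377-3p, listed: tGAATCACacaaaggcaactttt
miR-377-3p, RefSeq: aTCACACAaaggcaacttttgt
miR-496a-3p, listed: aGTATTACatggccaatctcc
miR-496a-3p, RefSeq: tGAGTATTacatggccaatctc
miR-679-5p, listed: tTGGACTGtgaggtgactcttgg
miR-679-5p, RefSeq: gGACTGTGaggtgactcttggt

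The substitution in miR-376b-3p was A6G, RefSeq base first and position counted from 1 at the 5′ end of the mature miRNA (chr12:109723508-109723528 in RefSeq). Transcripts of the miR-376 hairpins are known substrates of the adenosine deaminases that turn adenosine into inosine, which sequencing reads as G. The listed miR-382-3p began 2 bases before the RefSeq start, miR-377-3p 3 bases before and miR-679-5p 2 bases before, while miR-496a-3p began 2 bases after it. The RefSeq form of none of the 16 members listed in another form was among the sequences analysed here, so no share of one form against the other can be given.

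Levels are given below as CPM, the reads of a miRNA relative to the library's total, with totals scaled between libraries by the trimmed mean of M-values (TMM). The listed A6G form of miR-376b-3p stood at 159, 207 and 189 CPM in the control libraries and at 123, 209 and 289 CPM in the PS-NP libraries. The PS-NP libraries held both the lowest and the highest value, and the groups overlapped. miR-376b-5p from the other arm stood at 58.2, 45.9 and 76.0 CPM in the control libraries and at 79.2, 43.6 and 77.6 CPM in the PS-NP libraries.

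Stretches of letters recurred among the members. The letters ACANGG, searched in the listed 5′ to 3′ orientation only, occurred in 10 of the 26 3p members (38.5%), in 0 of the 20 5p members and in 14 of the 726 other mouse-named sequences (1.93%). Its carriers were miR-379-3p, miR-411-3p, miR-323-3p, miR-494-3p, miR-495-3p, miR-381-3p, miR-487b-3p, miR-154-3p, miR-496a-3p and miR-369-3p, in 8 of which it began at base 7. GGTTNNCC, searched the same way, occurred in 5 of the 20 5p members (25%), namely miR-299a-5p, miR-380-5p, miR-134-5p, miR-154-5p and miR-409-5p, and in 1 of the 26 3p members (3.85%), miR-154-3p. It occurred in 6 of the 726 other mouse-named sequences (0.826%). Both stretches were chosen after the sequences had been read, and a match is a description of letters. The first base was A in 20 of the 46 members (43.5%) against 194 of 726 other mouse-named sequences (26.7%), and it was C in 2 members (4.35%) against 173 of the others (23.8%).

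The libraries held 6170654 to 9905746 reads on listed sequences, of which 132130 to 246234 were on the cluster. Correlations of log2 CPM across sequences ran from 0.980 to 0.989 between libraries of 1 group and from 0.977 to 0.990 between groups. The neuronal miRNAs miR-124-3p and miR-128-3p averaged 43203 and 112780 CPM, and miR-451a, which marks red blood cells, averaged 59.3 CPM and miR-144-3p from the same blood cell locus was at or near 0. The summed choroid plexus markers ran from 1771 to 5619 CPM in the controls and from 2056 to 7218 CPM under PS-NP. Summed pituitary and hypothalamus markers stood at 735, 1314 and 932 CPM in the controls and at 620, 996 and 1728 CPM under PS-NP. PS-NP 3 was the highest and control 2 the next, and the groups overlapped. In log2 difference 2 of these 3 were above 0 (median 0.057). The summed vascular markers ran from 4448 to 5666 CPM in the controls and from 5726 to 7228 CPM under PS-NP, without overlap, and 3 of the 4 were above 0 in log2 difference, miR-145a-5p being the exception (-0.13). The 4 tested microglia and leukocyte markers were all above 0 (median log2 difference 0.50), as were the 3 tested astrocyte markers (median 0.38). Above 0 were also 3 of 4 neuron markers (median 0.038) and 1 of 3 oligodendrocyte markers (median -0.017), against 47.9% of all sequences. The microglia, astrocyte and vascular lists had a median G and C content of 39.6%, 40.9% and 44.2%, in that order, against 50% in all sequences. miR-142a-5p, miR-223-3p and miR-155-5p averaged only 11.3, 10.6 and 4.17 CPM. The summed levels of the microglia and leukocyte list and of the astrocyte list overlapped between groups. None of these markers passed the adjusted threshold. The part of these tissues in the member values was not tested.

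The share of all reads that fell on the cluster overlapped between the groups. The cluster held 1.91%, 2.44% and 2.05% of reads in the control libraries and 1.77%, 2.24% and 2.49% in the PS-NP libraries. After TMM scaling the members summed to 20885, 21979 and 21308 CPM in the controls (21391 ± 551, SD, n = 3) and to 20572, 21011 and 22293 CPM under PS-NP (21292 ± 894, SD, n = 3). The PS-NP libraries held both the lowest and the highest sum, the groups overlapped, and the ratio of the means was 0.995. Members at the 21 hairpins before Mirg summed to 10809 ± 666.3 CPM in the controls and 10953 ± 580 CPM under PS-NP (SD, n = 3 each), and members within Mirg to 10582 ± 249 and 10339 ± 418 CPM. The stretches outside and inside Mirg thus carried similar amounts, and the difference between groups was smaller than the SD in each.

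Single members differed widely in level. The mean over the 6 libraries was at least 1000 CPM for 6 members, from 100 to 1000 CPM for 22, from 10 to 100 CPM for 12 and under 10 CPM for 6, with a median of 209 CPM. The 6 most abundant held 48.1% of the cluster's summed CPM and the 12 most abundant held 69.5%. The highest tested member stood 1335-fold above the lowest. Reads were not corrected for how readily each miRNA is ligated and amplified, so levels of different miRNAs compare only roughly.

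**Figure D1:**
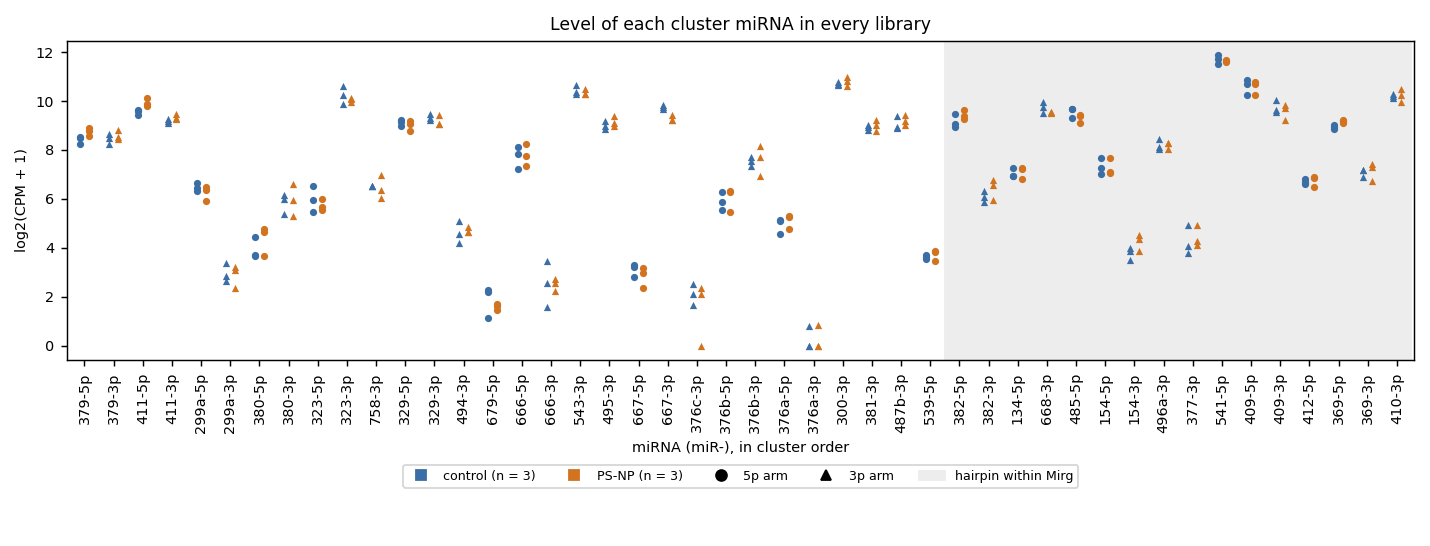
Level of each of the 46 listed cluster miRNAs on a log2(CPM + 1) axis, in chromosome order from miR-379 to miR-410, with 1 point per library (blue control, n = 3; orange PS-NP, n = 3; circles 5p arm, triangles 3p arm; grey marks hairpins within Mirg). High and low members alternate along the whole cluster, and miR-541-5p, with a mean of 3266 CPM, is the highest.

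miR-541-5p, from an intron of Mirg, was the most abundant member and ranked 40 among the 1013 sequences. It stood at 3357, 2894 and 3749 CPM in the control libraries and at 3282, 3191 and 3123 CPM in the PS-NP libraries. All PS-NP values lay between the lowest and the highest control, and the log2 difference (PS-NP minus control, edgeR) was -0.059 (SE 0.16). Every one of its libraries was above every library of the next member, miR-300-3p.

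miR-300-3p, which differs from miR-381-3p by 3 bases, stood at 1612, 1764 and 1643 CPM in the controls and at 1590, 1804 and 2040 CPM under PS-NP. miR-409-5p, one of the GGTTNNCC carriers, stood at 1671, 1198 and 1835 CPM in the controls and at 1648, 1209 and 1781 CPM under PS-NP. In both groups the second library of miR-409-5p was the lowest, and the groups overlapped for both miRNAs. The log2 differences were 0.11 (SE 0.16) and -0.021 (SE 0.22), and the ranges of these neighbours in rank overlapped.

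miR-543-3p, which targets N-cadherin in the developing mouse cortex together with miR-369-3p and miR-496, stood at 1236, 1623 and 1318 CPM in the controls and at 1267, 1440 and 1256 CPM under PS-NP. miR-410-3p, from the last hairpin, stood at 1129, 1266 and 1193 CPM in the controls and at 1203, 1001 and 1426 CPM under PS-NP. The PS-NP libraries enclosed the controls for miR-410-3p and fell within them for miR-543-3p. The log2 differences were 0.017 (SE 0.18) and -0.076 (SE 0.17), in that order.

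miR-323-3p stood at 1201, 1561 and 937 CPM in the controls and at 1103, 996 and 1080 CPM under PS-NP, all PS-NP libraries lying inside the wide control range (log2 difference -0.22, SE 0.20). The other arm of its hairpin, miR-323-5p, was less abundant, with a mean of 58.9 CPM against 1146 CPM. It stood at 61.8, 90.8 and 43.4 CPM in the controls and at 62.7, 49.4 and 45.4 CPM under PS-NP, with control 2 highest on both arms. Its log2 difference of -0.32 (SE 0.29) was among the lowest of the members, and the groups overlapped. Without control 2 it was -0.0071.

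Of the next members in rank, miR-409-3p stood at 746, 1041 and 785 CPM in the controls and at 601, 834 and 923 CPM under PS-NP. miR-668-3p stood at 870, 999 and 726 CPM in the controls and at 740, 727 and 739 CPM under PS-NP, where the 3 libraries were nearly equal. For both, the PS-NP range overlapped that of the controls, with log2 differences of -0.12 (SE 0.22) and -0.23 (SE 0.17). Without control 2 the latter was -0.12.

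miR-485-5p, which lowers the synaptic vesicle protein SV2A in rat hippocampal neurons, stood at 820, 825 and 640 CPM in the controls and at 681, 673 and 556 CPM under PS-NP. miR-382-5p stood at 531, 708 and 495.4 CPM in the controls and at 662, 786 and 606 CPM under PS-NP. PS-NP libraries tended low for the first and high for the second, but both pairs of groups overlapped, with log2 differences of -0.26 (SE 0.18) and 0.24 (SE 0.20). miR-134-5p, which limits dendritic spine size in rat hippocampal neurons through Limk1, was less abundant, at 120, 151 and 122 CPM in the controls and 110, 148 and 152 CPM under PS-NP.

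Among the other members with a known part in dendrite growth, miR-329-3p stood at 706, 597 and 624 CPM in the controls and at 682, 537 and 537 CPM under PS-NP (log2 difference -0.13, SE 0.17). miR-381-3p stood at 493, 446 and 523 CPM in the controls and at 432, 524 and 592 CPM under PS-NP (log2 difference 0.081, SE 0.18). For miR-381-3p the PS-NP libraries enclosed the controls, and for miR-329-3p only PS-NP 1 reached into the control range. miR-496a-3p, by name of the N-cadherin group, was listed with a start 2 bases after that of RefSeq and so with another seed. Whether this form has the same target was not tested. It stood at 276, 262 and 350 CPM in the controls and at 310, 260 and 314 CPM under PS-NP (log2 difference -0.0077, SE 0.18).

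Members of the miR-380 hairpin were scarcer and varied more. miR-380-5p stood at 11.8, 20.8 and 11.9 CPM in the controls and at 11.9, 26.4 and 23.99 CPM under PS-NP (log2 difference 0.49, SE 0.36). miR-380-3p stood at 41.0, 69.8 and 62.2 CPM in the controls and at 38.4, 61.1 and 95.5 CPM under PS-NP (log2 difference 0.18, SE 0.34). Control 1 and PS-NP 1 were the low libraries on both arms, beside control 3 on the 5p arm, and the groups overlapped. Of the members not given library by library, miR-487b-3p had the highest mean (569.8 CPM), followed by miR-329-5p (532 CPM), and the others ran down to miR-679-5p (2.45 CPM).

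At the low end, miR-376c-3p was listed at 0 in PS-NP 1 and at 2.20 to 4.68 CPM in the other 5 libraries. miR-376a-3p was listed at 0 in 4 libraries, with 5 reads in control 2 and 9 reads in PS-NP 3. Values under 5 reads are rare in the table, so a listed 0 may stand for a few reads. Abundant members varied less between libraries than scarce ones. The median coefficient of variation within groups was 13.0% for members of at least 100 CPM and 28.02% for those below.

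A sequence named rno-miR-485-3p, after the rat miRNA, lies inside the mouse Mir485 hairpin and held 9647, 7186 and 5697 reads in the controls and 6318, 6463 and 8908 reads under PS-NP. It was outside the rule by its name and is in no sum above.

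The arms of a hairpin are made in equal amounts and are then retained unequally, and the cluster was evenly divided between arms. For 28 cluster hairpins both arms were listed with enough reads, 14 leaned to the 5p arm and 14 to the 3p arm. In 7 of the 28 the arms were within 4-fold of each other. The 5p members took 44.7%, 40.01% and 45.6% of the cluster's reads in the controls (43.4% ± 3.01, SD, n = 3) and 46.1%, 44.9% and 42.5% under PS-NP (44.5% ± 1.83, SD, n = 3). Control 2 was the lowest, and the groups overlapped. Without miR-541-5p these shares were 33.0% ± 1.82 and 34.7% ± 1.40.

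**Figure D2:**
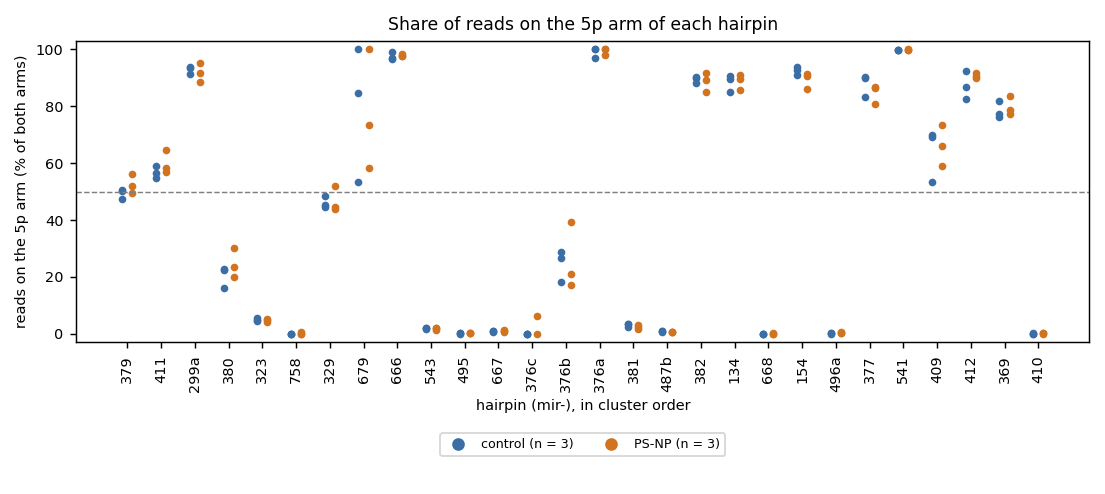
Share of reads on the 5p arm, in percent of the reads on both arms, for the 28 cluster hairpins with both arms listed, with 1 point per library (blue control, n = 3; orange PS-NP, n = 3) and a dashed line at equal use. Hairpins sit near the top or the bottom except miR-379, miR-411, miR-329, miR-409 and a few others, and no hairpin has groups that do not overlap on the log2 ratio of arms.

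The most 5p-sided hairpins were miR-541 (mean 99.9% of reads on the 5p arm), miR-376a (99.1%) and miR-666 (97.7%). The most 3p-sided were miR-668 (0.105% on the 5p arm), miR-758 (0.119%) and miR-410 (0.136%). The hairpins at the start of the cluster were close to even. The miR-379 hairpin had 50.2%, 47.4% and 50.5% of its reads on the 5p arm in the controls and 52.1%, 49.4% and 56.3% under PS-NP. The miR-411 hairpin had 54.7%, 59.0% and 56.5% in the controls and 58.2%, 64.7% and 56.9% under PS-NP. Both hairpins thus gave substantial amounts of the 3p miRNAs with the shared seed ATGTAAC as well as the 5p miRNAs with different seeds.

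The scarce arms behind those shares were read only a few times. miR-541-3p, which is no member, had 29, 17 and 21 reads in the controls and 18, 22 and 42 reads under PS-NP. miR-410-5p, no member either, had 17, 12 and 0 reads in the controls and 13, 10 and 36 reads under PS-NP. miR-666-5p stood at 229, 279 and 148 CPM in the controls and 215, 161 and 302 CPM under PS-NP. Its partner miR-666-3p stood at 1.97, 10.1 and 4.84 CPM in the controls and 5.55, 3.67 and 4.98 CPM under PS-NP, and for both arms the groups overlapped.

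No cluster hairpin passed the test of arm use between the groups. By limma on the log2 ratio of 5p to 3p reads, adjusted over all 195 mouse hairpins with both arms, 0 of the 28 passed an adjusted p of 0.05, against 1 of 195 (0.513%) in all, and the smallest adjusted p in the cluster was 0.783. At an unadjusted p under 0.05 there were also 0 of 28, against 2.56% of all hairpins. Hairpins whose groups did not overlap were 0 of 28, against 10.3% of all.

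The lowest p values in arm use belonged to miR-154, miR-758, miR-495 and miR-668. The miR-154 hairpin had 92.7%, 93.7% and 91.0% of its reads on the 5p arm in the controls and 90.6%, 91.3% and 86.2% under PS-NP. PS-NP 3 was the lowest and PS-NP 2 was above control 3, so the groups overlapped. The difference in the log2 ratio of arms, PS-NP minus control, was -0.53 (SE 0.29, 95% interval -1.24 to 0.18), with an adjusted p of 0.783 by limma. In the other 3 of these hairpins the difference rested on a scarce 5p arm. miR-758-5p had 10 reads in PS-NP 3 and was listed at 0 in the other 5 libraries. miR-495-5p had 11, 0 and 7 reads in the controls and 7, 23 and 18 under PS-NP. miR-668-5p had 0, 6 and 6 reads in the controls and 5, 12 and 10 under PS-NP.

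The more abundant partners miR-758-3p and miR-495-3p overlapped between groups too, as did miR-668-3p, given above. miR-758-3p stood at 91.5, 91.8 and 92.4 CPM in the controls, nearly equal, and at 81.5, 63.8 and 126 CPM under PS-NP. miR-495-3p, an ACANGG carrier, stood at 468, 501 and 584 CPM in the controls and at 503, 542 and 662 CPM under PS-NP. miR-376a-5p stood at 33.2, 23.0 and 34.7 CPM in the controls and at 37.1, 26.5 and 38.2 CPM under PS-NP, with the second library lowest in both groups.

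No member passed the test between PS-NP and control after adjustment. By edgeR's quasi-likelihood test, adjusted over all 639 sequences tested, 0 of the 45 members passed an adjusted p of 0.05, against 0 of 639 (0%) in all, and the smallest adjusted p of any sequence was 0.906. DESeq2 and limma-voom likewise called 0. At an unadjusted p under 0.05, 1 member was higher under PS-NP (miR-411-5p, against 1.41% of all sequences) and 1 was lower (miR-667-3p, against 0.939%), which makes 2 of 45 against 2.35% of all. DESeq2 and limma-voom also put 2 of 45 under that value. The other scalings, the other filters and separate entries put 1 member there, miR-667-3p. Without a filter 46 members were tested, and with a mean of at least 100 reads 39. Leaving out 1 library gave 0 (without control 1) to 5 (without PS-NP 1).

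Differences of members were small. The log2 difference was above 0 for 25 of the 45 members (55.6%), against 306 of all 639 sequences (47.9%), with a median of 0.047 for members and -0.017 for all. The median size regardless of sign was 0.14 for members and 0.23 for all sequences. Among sequences with a mean of at least 100 reads it was 0.14 and 0.20. The extremes were -0.47 (miR-679-5p, whose mean of 2.45 CPM was the lowest tested) and 0.51 (miR-154-3p). The estimated difference exceeded 1.5-fold for 0 of 45 members, against 10.3% of all sequences. Most sequences past that size were scarce: with a mean of at least 100 reads there were 6 of 401, and 0 of 39 members. The 95% interval stayed within 2-fold in either direction for 39 of the 45 members, and its median half-width was 0.49 on the log2 scale.

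**Figure D3:**
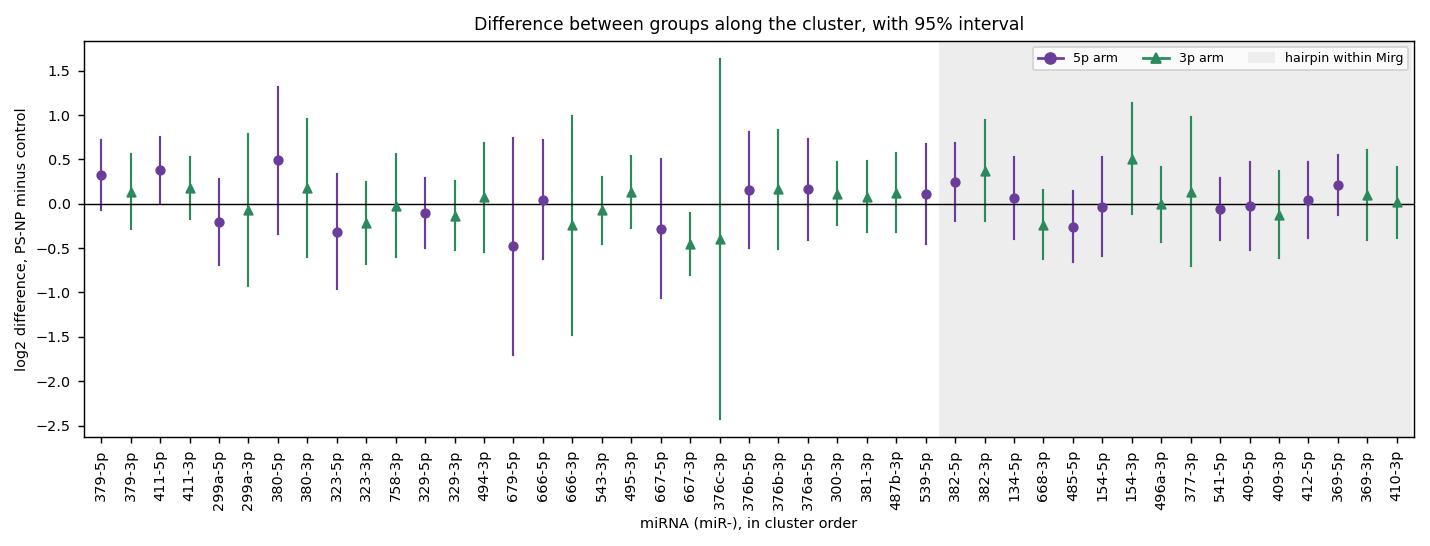
Log2 difference, PS-NP minus control, with its 95% interval from edgeR (3 libraries per group) for the 45 tested members in chromosome order (purple circles 5p arm, green triangles 3p arm; grey marks hairpins within Mirg). The intervals of 43 members include 0; those of miR-411-5p (0.38) and miR-667-3p (-0.45) do not, and the widest belongs to miR-376c-3p.

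Groups did not overlap for 4 members that were higher under PS-NP, against 5.01% of all sequences, and for 1 that was lower, against 4.54%. In either direction that made 5 of 45 against 9.55%. Among sequences with a mean of at least 100 reads, 25 of 401 were higher and 11 lower without overlap, beside 4 and 1 of 39 members. The 4 were miR-379-5p, miR-411-5p, miR-411-3p and miR-369-5p. The first 3 are from the first pair of hairpins, whose other member, miR-379-3p, overlapped.

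miR-379-5p, the first mature miRNA of the cluster, stood at 302, 363 and 364 CPM in the controls and at 378.8, 438 and 472 CPM under PS-NP. miR-411-5p, whose seed is AGTAGAC, stood at 696, 782 and 799 CPM in the controls and at 885, 1127 and 939 CPM under PS-NP. In both, every PS-NP library was above every control library. The log2 difference was 0.32 for miR-379-5p (SE 0.17, 95% interval -0.066 to 0.71) and 0.38 for miR-411-5p (SE 0.16, 95% interval 0.0001 to 0.75), each with an adjusted p of 0.906 by edgeR. The unadjusted p of miR-411-5p in that fit was 0.04995, just under the threshold.

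miR-411-3p stood at 576, 544 and 614 CPM in the controls and at 635, 616 and 710 CPM under PS-NP. Control 3 and PS-NP 2 were nearly level, so the groups were barely apart (log2 difference 0.18, SE 0.15, and 0.096 without PS-NP 3). Its relative with the same seed, miR-379-3p, stood at 298.8, 403 and 357 CPM in the controls and at 348, 450 and 366 CPM under PS-NP and overlapped (log2 difference 0.14, SE 0.19).

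miR-369-5p stood at 525, 493.6 and 466 CPM in the controls and at 550, 577 and 591 CPM under PS-NP, with every PS-NP library above every control (log2 difference 0.21, SE 0.15). From the other arm of that hairpin, miR-369-3p, which acts on the AU-rich element of TNF mRNA in human cells, stood at 117, 145 and 145 CPM in the controls and at 107, 157 and 172 CPM under PS-NP and overlapped.

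miR-667-3p had the lowest p of the members. It stood at 913, 856 and 809 CPM in the controls and at 685, 602 and 598 CPM under PS-NP, every PS-NP library below every control. The log2 difference was -0.45 (SE 0.15, 95% interval -0.80 to -0.10), with an adjusted p of 0.906 and an unadjusted p of 0.0169 by edgeR. It is rich in G and C (65.2%), and with the trend of G and C content removed from each library the difference was -0.24.

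miR-154-3p and miR-382-3p, both of hairpins within Mirg, had high log2 differences but overlapping groups. miR-154-3p stood at 10.3, 13.7 and 14.997 CPM in the controls and at 13.8, 19.5 and 22.1 CPM under PS-NP (log2 difference 0.51, SE 0.28). miR-154-5p from the same hairpin stood at 130, 203 and 153 CPM in the controls and at 132, 204 and 138 CPM under PS-NP (log2 difference -0.035, SE 0.25). The listed form of miR-382-3p, with its start 2 bases before that of RefSeq, stood at 57.4, 78.2 and 66.9 CPM in the controls and at 60.2, 94.1 and 108 CPM under PS-NP (log2 difference 0.37, SE 0.25, and 0.17 without PS-NP 3).

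Base composition moved with the differences, in the cluster as in all sequences. The G and C content of the tested members had a median of 45.5% and ran from 23.8% (miR-369-3p) to 71.4% (miR-323-5p), against a median of 50% in all sequences. Spearman's rho between G and C content and the log2 difference was -0.506 across the 45 members and -0.467 across all 639 sequences, as a description, since these values share the same 6 libraries. Over 55% G and C, 6 of 8 members were below 0 (median -0.25), beside 157 of 195 of all sequences (median -0.23). At 40% or less, 9 of 10 members were above 0 (median 0.14), beside 70 of 89 of all (median 0.27).

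**Figure D4:**
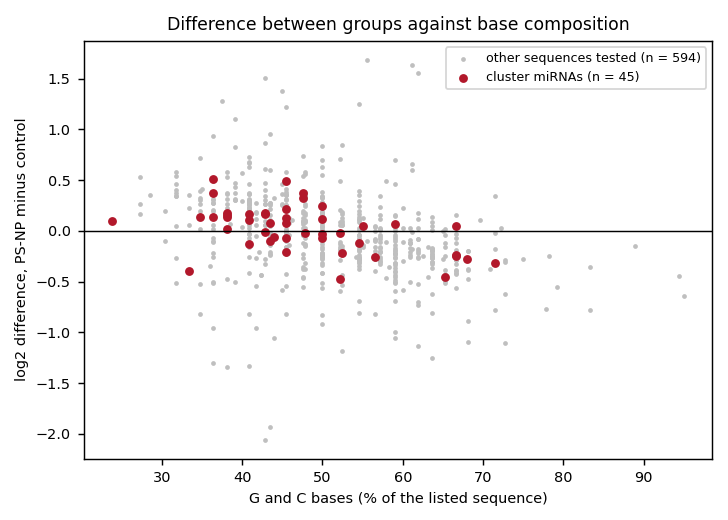
Log2 difference, PS-NP minus control (edgeR, 3 libraries per group), against the G and C content of the listed sequence in percent, for the 45 tested members (red) and the other 594 sequences tested (grey). Differences tended lower with more G and C in both sets, with Spearman's rho of -0.506 in members and -0.467 in all 639 sequences.

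With the trend of log2 CPM on G and C content removed from each library, rho across the members was 0.164 and across all sequences -0.0618. Members at an unadjusted p under 0.05 by edgeR then numbered 0, and the adjusted count remained 0. The difference of miR-411-5p was 0.34, while those of miR-668-3p and miR-323-5p turned from below 0 to 0.018 and 0.024. What lies behind the trend was not tested.

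The members were also compared within each library. Relative to its own mean over the 6 libraries, the median member deviated on the log2(CPM + 1) scale by -0.088, 0.069 and -0.026 in the controls and by -0.069, 0.043 and 0.19 under PS-NP, while the median of all sequences stayed between -0.0046 and 0.040. Of the 45 members, 16, 27 and 19 were above their own mean in the controls and 18, 26 and 30 under PS-NP. PS-NP 3 was the highest in both measures, and without it 14 of 45 members were above 0 in the comparison of groups and the median log2 difference was -0.061.

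**Figure D5:**
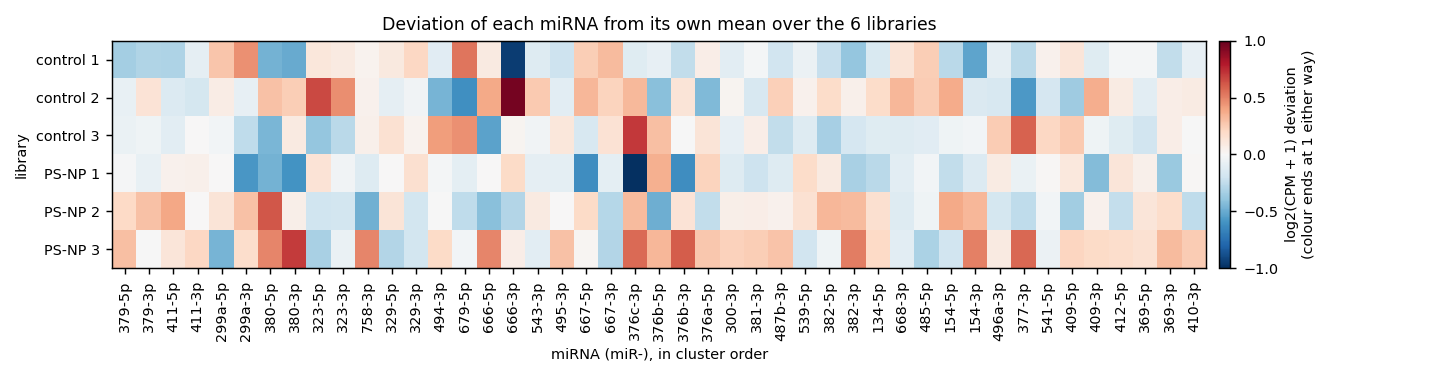
Deviation of each tested member from its own mean over the 6 libraries, on the log2(CPM + 1) scale, with libraries in rows (3 control, 3 PS-NP) and members in chromosome order in columns; red is above and blue below the mean, and colours end at 1 in either direction. PS-NP 3 is mostly red (30 of 45 members above their mean) and control 1 mostly blue (16 of 45).

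The neighbouring miRNAs of the Dlk1-Dio3 region are given beside the cluster. The miRNAs antisense to Rtl1, an imprinted gene upstream of the cluster, were far more abundant, summing to 98714 ± 4574 CPM in the controls and 95846 ± 14330 CPM under PS-NP (SD, n = 3 each). Of 13 on that list, 10 were tested, 7 of them above 0 with a median log2 difference of 0.057. The cluster stood to them in a ratio of 0.217 ± 0.0135 in the controls and 0.225 ± 0.0341 under PS-NP. Of 18 other miRNAs of the region, 12 were tested, 3 of them above 0 with a median of -0.24 and a median G and C content of 61.4%. Of 26 names for the other arms and hairpins in the same stretch, 13 were tested, 6 of them above 0 with a median of -0.038. None of these lists held a sequence that passed the adjusted threshold.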

How the data were processed

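Per the labels' protocols, Trizol-extracted RNA went into TruSeq small RNA libraries for Illumina HiSeq sequencing, and the ACGT101-miR program filtered the reads. Those protocols speak of more libraries than the 6 analysed here. Not given in the sources used here: aligner, genome build, miRBase release. Per the file headers, the deposited table holds a raw and a norm column for each library. Raw values are the authors' estimated counts of reads, in which reads of 1 sequence on several entries were divided among them: 86.8% of values were whole as listed and 95.0% after summing (tolerance 1e-06). The deposited norm values are a signal equal to raw times 1 factor per library, and served for 1 alternative scaling. The table has 3 more lines that were not analysed here.

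The 1115 entries were summed by sequence to 1013 (772 named for mouse) and rounded to whole numbers. Of 3981 whole values above 0 on single entries, 18 were under 5 and 256 exactly 5. The filter for testing was 10 reads or more in 3 libraries or more, and the test was run with edgeR 4.0.16 (TMM factors 0.863 to 1.12, quasi-likelihood, Benjamini-Hochberg at 0.05; common biological coefficient of variation 30.6%) in R 4.3.3. Arm use was tested with limma 3.58.1 on log2((5p reads + 1)/(3p reads + 1)), for hairpins with a mean of at least 20 reads. Alternatives were DESeq2 1.42.0, limma-voom, other scalings and filters, separate entries, a G and C trend (loess) removed, the replicate numbers as a block, and each library left out. Values in every library were given for the 12 most abundant members, the 4 of lowest p in each direction, members whose groups did not overlap, and arms of the 4 hairpins of lowest p and the 3 most one-sided hairpins either way; a few others were added after their values were seen. The members and lists were chosen with earlier results of these data known.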

Additional observations from a re-analysis of the deposited data

How the results depend on the processing

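Over 16 alternative settings the adjusted count of sequences was 0 in each, with 6 to 38 sequences at an unadjusted p under 0.05 and a smallest adjusted p from 0.479 to 0.999. The 10 named members had been picked by p or by non-overlap in these same libraries, so a kept direction was largely set by that choice. They gave 156 of 160 alternative values in their main direction. The exceptions were miR-323-5p (0.024) and miR-668-3p (0.018) with the G and C trend removed, and the same miRNAs (0.027 and 0.018) with that and the replicate block together; the cause was not tested. Without PS-NP 3, 14 of 45 members were above 0 and the median was -0.061. Leaving out each library in turn, the number of members above 0 ran from 14 to 29 and their median from -0.061 to 0.079. Among named members these fits gave log2 differences of -0.52 to -0.40 for miR-667-3p, 0.25 to 0.44 for miR-411-5p, 0.23 to 0.41 for miR-379-5p, 0.096 to 0.22 for miR-411-3p, 0.17 to 0.26 for miR-369-5p, 0.34 to 0.68 for miR-154-3p, 0.17 to 0.58 for miR-382-3p, -0.54 to -0.0071 for miR-323-5p, -0.35 to -0.12 for miR-668-3p and -0.37 to -0.19 for miR-485-5p. The 1 hairpin outside the cluster that passed in arm use was called by 0 fits with a pseudocount of 5 and by 0 with the replicate block, and the count ran from 0 to 1 leaving out each library. Whether the same replicate numbers pair libraries cannot be settled here, because deviations within a group of 3 libraries are tied to each other. Same-numbered libraries correlated at 0.43, 0.15 and -0.17 in their deviations from the group means. Those with different numbers ran from -0.47 to 0.44. The replicate block left the adjusted count at 0 and 25 members above 0. Scarce members rest on few reads: below 100 CPM the spread between libraries limits what difference can be seen.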
